A study of Homo sapiens with 6 samples.

Results

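The 213 numbered ZNF genes of chromosome 19 were studied as a group. They were the protein-coding entries of the deposited table whose name was ZNF followed by digits and whose locus lay on chromosome 19, out of 42822 entries in all. The rule itself uses only the name, type and locus of an entry. RNA was measured in HCT116-UGI cells, cells of a colon adenocarcinoma that lack mismatch repair and express UGI, an inhibitor of uracil-DNA glycosylase. Cells received 100 nM RTX (raltitrexed, an antifolate inhibitor of thymidylate synthase, TS), 20 µM 5FdUR (a fluorinated deoxyuridine that blocks TS as a nucleotide) or no treatment (NT), each for 48 h. The nuclear and cytoplasmic extracts of a treatment were pooled, and the pooled lysate gave RNA from an anti-TS immunoprecipitate (TS-RIP) and from the antibody-free beads used for pre-clearing (RIPctr). This made 6 libraries, 1 per treatment and fraction, all of 1 cell line. RIPctr stands for RNA that beads retained without antibody and not for the total RNA of the cells, and NT received no solvent.

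Most of these genes encode C2H2 zinc finger proteins. In a C2H2 finger a pair of cysteines and a pair of histidines hold a zinc ion, and neighbouring fingers read DNA side by side. Many carry a KRAB domain, which recruits the corepressor TRIM28 and through it the histone methyltransferase SETDB1, and they are known for silencing transposable elements. The chromosome 19 genes arose largely by tandem duplication, so that neighbours resemble each other.

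In the coding sequences of GENCODE 44, the 213 members had a median of 12 C2H2 fingers, with 1 to 36 fingers in a member. One repeat, a finger with the 7 codons that follow it, is shown for 4 members that were lower in TS-RIP and for ZNF787, which was higher. It is in each case the first finger of the gene with a standard linker after it. Capitals mark the codons of the zinc-binding cysteines and histidines.
ZNF431 (chr19:21183003-21183086, plus strand, GRCh38): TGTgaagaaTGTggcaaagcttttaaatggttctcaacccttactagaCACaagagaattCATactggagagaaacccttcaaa
ZNF91 (chr19:23362094-23362177, minus strand): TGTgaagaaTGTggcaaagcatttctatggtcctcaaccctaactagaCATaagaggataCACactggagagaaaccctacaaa
ZNF83 (chr19:52614115-52614198, minus strand): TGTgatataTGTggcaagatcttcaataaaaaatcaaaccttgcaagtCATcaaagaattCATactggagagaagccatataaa
ZNF460 (chr19:57291133-57291216, plus strand): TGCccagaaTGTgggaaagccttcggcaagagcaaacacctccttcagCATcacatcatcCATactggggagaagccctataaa
ZNF787 (chr19:56088887-56088970, minus strand): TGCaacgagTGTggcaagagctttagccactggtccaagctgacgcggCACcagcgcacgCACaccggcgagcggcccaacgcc

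ZNF431 and ZNF91, from the same gene cluster, shared 74 of the 84 bases, and ZNF431 and ZNF787 shared 46. Over whole coding sequences, GC content was 37.3% in ZNF431, 37.6% in ZNF91, 38.0% in ZNF83, 50.4% in ZNF460 and 73.4% in ZNF787. Some stretches of 50 bases also occurred in the coding sequence of another numbered ZNF gene, on any chromosome. They made up 13% of the ZNF431 coding sequence, 6.81% of ZNF91, 0.4% of ZNF83, and none of ZNF460 or ZNF787. How many fragments such stretches cost a gene was not tested. Over the 213 members the share was above 10% in 23 and was 0 in 115.

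A KRAB A box was found in 140 of the 213 members with a fixed pattern that asks for tryptophan after a conserved glutamate. A wider pattern, written after the sequences had been seen, found it in 176. The stretch shows why some boxes were missed, with the codon after the glutamate in capitals, which encodes tryptophan in ZNF431 and ZNF460 and leucine in ZNF225.
ZNF431 (chr19:21166347-21166430, plus strand): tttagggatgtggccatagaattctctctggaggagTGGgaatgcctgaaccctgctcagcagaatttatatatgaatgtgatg
ZNF460 (chr19:57284563-57284646, plus strand): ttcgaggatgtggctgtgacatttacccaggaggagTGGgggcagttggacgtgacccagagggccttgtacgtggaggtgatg
ZNF225 (chr19:44118200-44118283, plus strand): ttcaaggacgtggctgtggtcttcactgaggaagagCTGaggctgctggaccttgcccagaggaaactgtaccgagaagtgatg

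Values are scaled fragment counts, not divided by length. Depth was 7051104 (5FdUR RIPctr) to 11657293 (NT TS-RIP) fragments, and a value of 500 stood for 3.67 to 5.88 fragments. Of the 213 members, 135 had a mean above 500 over the 6 libraries and are called measured, 68 lay between 0 and that limit, and 10 were listed at 0 throughout. A count of 0 allows up to 3 fragments, a value of 255 to 409 depending on the library. Of the 135 measured entries 23 merged the member with overlapping genes. Of 8 colon epithelial markers 6 were above 500 in each library, and their summed value was 6413932 to 10220641, against 9269 to 24734 for 5 fibroblast markers. The summed value of 5 blood markers was 0 to 818, with CD3E and HBB at 0 and none above 500 in each library. Above 500 in each library were 1 of the 5 fibroblast markers and 1 of 3 endothelial markers. Each treatment had 1 library per fraction, so only counting error could be estimated within a treatment. Variation between cultures, pull-downs and library preparations is also in these differences and could not be measured.

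The ZNF genes had low values in these TS-RIP and RIPctr libraries, which do not include total RNA. The median value per kb of transcript, averaged over the 6 libraries, was 2308 over the 135 measured members and 8603 over all measured protein-coding genes. ZNF146 (ENSG00000167635, chromosome 19, 36214602 to 36238771, plus strand), which encodes OZF, a protein made almost solely of zinc fingers, had the highest level at 49726 per kb. ZNF787 followed with 27918, ZNF544 with 24320, ZNF428 with 20933 and ZNF317 with 17297 per kb. The ZNF544 entry merged 5 genes, so its level is not that of ZNF544 alone. All members together held 0.143%, 0.168% and 0.264% of the summed values in TS-RIP of RTX, 5FdUR and NT, and 0.181%, 0.197% and 0.251% in RIPctr. The share was lower with either drug than in NT in both fractions, and it was lower in TS-RIP than in RIPctr with each drug but not in NT.

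Whether ZNF RNAs differed between TS-RIP and the beads was asked over the 3 treatments as 3 pairs. Of 135 measured members 17 fell in TS-RIP (12.6%, against 6.17% of all 13479 genes tested), among them ZNF431, ZNF83, ZNF460 and ZNF91, and 2 rose (1.48%, against 2.33%), ZNF428 and ZNF787. The test was limma with treatment as a block and a Benjamini-Hochberg adjusted p under 0.05 over all genes. Mean log2 ratios of the 17 ranged from -2.51 to -0.45 (SE 0.12 to 0.43), and each of them lay below 0 in all 3 treatments. Among all measured members 53 lay below 0 in all 3 treatments (39.3%, against 23.3% of all genes) and 12 above 0 (8.89%, against 23.1%). The count of 17 rested on the choice of pairs. It was 37 without the NT pair, 6 without the RTX pair and 7 without the 5FdUR pair, with 6, 0 (3 at an unadjusted p under 0.05) and 1 rising, and none passed in limma without the treatment block (9 lower and 0 higher at an unadjusted p under 0.05). The share of all genes under these settings is not given. These counts thus show how the call moved and not whether members differed from other genes.

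ZNF431 (ENSG00000196705, chromosome 19, 21142024 to 21196053, plus strand) encodes a KRAB protein with 12 fingers. It had 5974, 5282 and 9350 in TS-RIP of RTX, 5FdUR and NT, against 15556, 14717 and 14818 in RIPctr. All TS-RIP values lay below all RIPctr values, and RIPctr hardly differed between treatments. The log2 ratios were -1.37 [-1.84 to -0.93], -1.46 [-1.98 to -0.99] and -0.66 [-1.04 to -0.29], where brackets here and below are 95% counting intervals (mean -1.16, SE 0.19, limma adjusted p = 0.00165).

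ZNF83 (ENSG00000167766, chromosome 19, 52594060 to 52690559, minus strand), with 14 fingers and no KRAB match, had 10407, 11561 and 13770 in TS-RIP of RTX, 5FdUR and NT, against 23271, 24392 and 20744 in RIPctr. Here too no TS-RIP value reached the lowest RIPctr value (mean ratio -0.94, SE 0.15, limma adjusted p = 0.00179). ZNF460 (ENSG00000197714, chromosome 19, 57280051 to 57294069, plus strand), one of the RNAs described earlier as bound by TS, had 27656, 29600 and 72847 in TS-RIP, against 48534, 62139 and 88791 in RIPctr. It was lower in TS-RIP within each treatment, although the NT TS-RIP value lay above the RIPctr values of both drugs. Its ratios were -0.81 [-1.04 to -0.59] in RTX, -1.07 [-1.29 to -0.86] in 5FdUR and -0.29 [-0.43 to -0.14] in NT (mean -0.72, SE 0.14, limma adjusted p = 0.0055).

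ZNF91 (ENSG00000167232, chromosome 19, 23304991 to 23395471, minus strand), which encodes a repressor of SVA retrotransposons with 31 fingers, had 6360, 3189 and 8670 in TS-RIP of RTX, 5FdUR and NT, against 7965, 7904 and 13906 in RIPctr. Its ratio in RTX, -0.32 [-0.84 to 0.19], was not distinguishable from 0 at this depth, whereas those in 5FdUR, -1.28 [-1.98 to -0.66], and NT, -0.68 [-1.08 to -0.29], were (limma mean -0.76, adjusted p = 0.0359). Without the 5FdUR pair the mean was -0.50 (limma adjusted p = 0.266), and the call was also lost in edgeR (adjusted p = 0.0516) and DESeq2 (adjusted p = 0.167). ZNF254, with 13 fingers, had ratios of -2.01 [-3.11 to -1.17] in RTX, -1.18 [-1.97 to -0.48] in 5FdUR and -0.08 [-0.70 to 0.55] in NT (limma adjusted p = 0.0447, and 0.427 at a mean of -0.63 without the RTX pair). ZNF493 had the lowest mean ratio of the 17, -2.51 (SE 0.43, limma adjusted p = 0.00306), from 5, 2 and 4 fragments in TS-RIP of RTX, 5FdUR and NT, against 21, 19 and 16 in RIPctr. Its entry merged the gene with the noncoding LINC00664 and a further gene, and the ZNF254 entry merged a pair of genes, so the RNA behind these values is not settled.

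The other members of the 12 lowest were ZNF225 (mean ratio -0.96), ZNF649 (-0.95), ZNF708 (-0.95), ZNF552 (-0.78), ZNF724 (-0.67, an entry of 4 merged genes) and ZNF430 (-0.66). Their limma adjusted p ranged up to 0.0436, and each encodes a KRAB protein by the wider pattern. Of these 6 only ZNF225 still passed in limma with the RTX pair or the 5FdUR pair left out, while for the other 5 the adjusted p was 0.137 to 0.243 without the RTX pair and 0.0609 to 0.221 without the 5FdUR pair. In ZNF649 the ratio in NT, -0.11 [-0.73 to 0.51], included 0, while those in RTX, -1.28 [-2.07 to -0.58], and 5FdUR, -1.47 [-2.28 to -0.78], did not. The remaining 5 of the 17 had mean ratios of -0.63 to -0.45.

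Both members that rose were rich in GC and had few fingers. ZNF428 (ENSG00000131116, chromosome 19, 43607224 to 43619629, minus strand), with 1 finger and a coding GC of 64.9%, had 29487, 39666 and 21591 in TS-RIP of RTX, 5FdUR and NT, against 14560, 24801 and 15843 in RIPctr. The value in TS-RIP was above that in RIPctr in each treatment, with ratios of 1.01 [0.71 to 1.34], 0.68 [0.42 to 0.94] and 0.44 [0.14 to 0.76] (mean 0.71, SE 0.14, limma adjusted p = 0.00661, and 0.127 without the RTX pair). ZNF787 (ENSG00000142409, chromosome 19, 56087366 to 56121295, minus strand), with 7 fingers, had 55601, 59798 and 72847 in TS-RIP, against 39449, 43470 and 53799 in RIPctr. Its ratio was nearly the same in each treatment, 0.49 in RTX, 0.46 in 5FdUR and 0.44 in NT (mean 0.46, SE 0.11, limma adjusted p = 0.0154, but 0.227 without the RTX pair and 0.0726 without the 5FdUR pair).

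**Figure D1:**
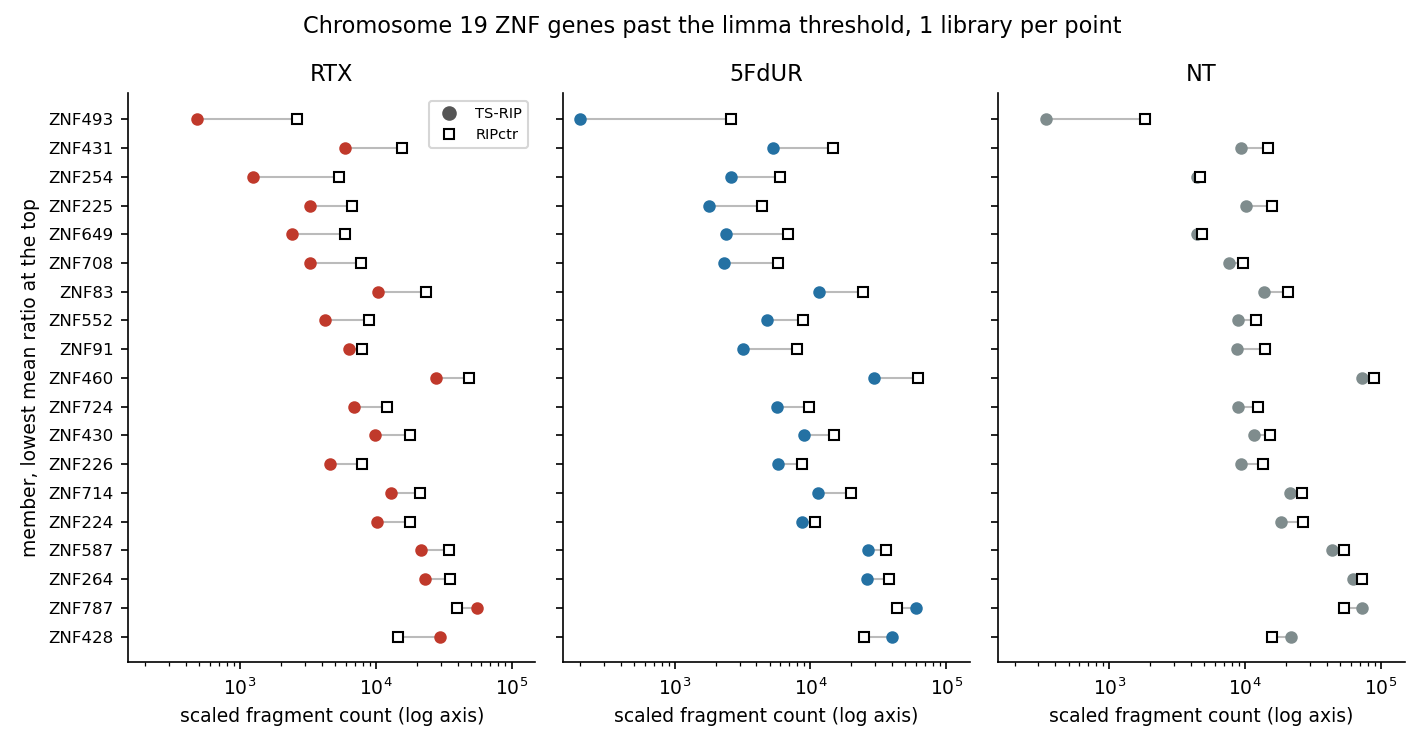
Scaled fragment counts (log axis) of the 19 members past the limma threshold, with TS-RIP as filled circles and RIPctr as open squares, 1 library per point, for RTX, 5FdUR and NT. The TS-RIP point lies left of the RIPctr point in each of the 17 upper rows and right of it for ZNF787 and ZNF428, and the gaps of ZNF254 and ZNF649 are small in NT.

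Within single treatments, members were counted by size when TS-RIP and RIPctr differed by 1.5-fold with a mean of both above 500. With RTX 39 of 133 were lower (29.3%, against 14.7% of all genes) and 5 higher (3.76%, against 4.27%). With 5FdUR 38 of 137 were lower (27.7%, against 15.1%) and 5 higher (3.65%, against 3.03%). In NT 13 of 134 were lower (9.70%, against 9.8%) and 6 higher (4.48%, against 4.37%). The share of lower members thus stood above that of all genes with either drug, and close to it in NT. Among protein-coding genes alone, the type of all members, the lower shares were 9.97% with RTX, 10.8% with 5FdUR and 6.61% in NT. The NT share of the members thus stood above that of protein-coding genes. These counts have no test, as each rests on 1 pair of libraries.

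Among members with a mean of both libraries above 5000, the lowest ratios were those of ZNF431, ZNF708 (-1.21) and ZNF83 (-1.15) in RTX, of ZNF431, ZNF91 and ZNF83 (-1.07) in 5FdUR, and of ZNF221 (-1.01), ZNF283 (-0.76) and ZNF91 in NT. The highest were ZNF428, ZNF414 (0.68) and ZNF787 in RTX. In 5FdUR they were ZNF524 (0.88), ZNF444 (0.80) and ZNF428. In NT they were ZNF584 (0.74), ZNF628 (0.70) and ZNF561 (0.48). ZNF428 was among the highest with either drug. ZNF628 had 8769, 6877 and 23716 in TS-RIP of RTX, 5FdUR and NT, against 11698, 9130 and 14590 in RIPctr. It was higher in TS-RIP in NT, 0.70 [0.39 to 1.01], while its intervals with the drugs, -0.41 [-0.85 to 0.02] in RTX and -0.40 [-0.92 to 0.10] in 5FdUR, included 0.

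The median ratio of the 135 measured members was -0.36 in RTX, -0.22 in 5FdUR and -0.05 in NT, and the medians over all measured genes were 0.00, -0.01 and 0.02. With each library scaled to the same total, the NT median of the members turned to 0.04 beside 0.11 over all genes. For 193 numbered ZNF genes outside chromosome 19 the medians were -0.17, -0.21 and -0.02, and for 730 other protein-coding genes of chromosome 19 they were 0.20, 0.10 and 0.15. The members thus lay nearer to ZNF genes elsewhere in the genome than to their neighbours on the chromosome, and the differences between these lists were not tested. By limma 19 of the 193 ZNF genes outside chromosome 19 fell (9.84%) and 1 rose (0.518%), whereas 13 of the 730 other chromosome 19 genes fell (1.78%) and 55 rose (7.53%).

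**Figure D2:**
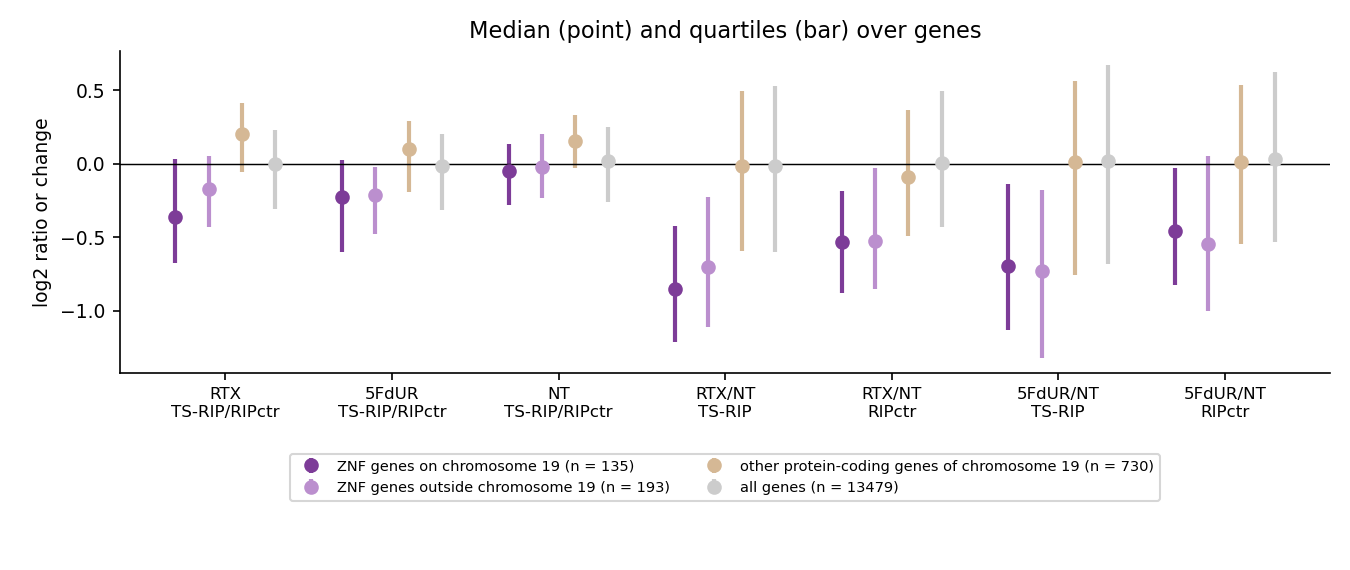
Medians (points) and quartiles (bars) of the log2 ratio of TS-RIP over RIPctr in RTX, 5FdUR and NT, and of the log2 change with each drug over NT in TS-RIP and RIPctr, for 135 chromosome 19 ZNF genes, 193 other ZNF genes, 730 other chromosome 19 genes and 13479 genes in all. Both ZNF lists lie below 0 in the drug changes, at medians from -0.85 to -0.46, whereas the other lists lie between -0.09 and 0.03.

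The ratio shift, the ratio with a drug minus that in NT, had a median of -0.27 for RTX and -0.21 for 5FdUR over the measured members, beside -0.03 and -0.04 over all genes. Both drugs share the NT libraries, so these shifts are not independent. Among members with a mean above 5000, the largest downward shifts with RTX were in ZNF628 (-1.11), ZNF180 (-1.0) and ZNF708 (-0.86). With 5FdUR they were in ZNF765 (-1.19), ZNF628 (-1.10) and ZNF708 (-0.93). The largest upward shifts were in ZNF211 (0.84), ZNF414 (0.69) and ZNF611 (0.59) with RTX, and in ZNF524 (0.86), ZNF444 (0.81) and ZNF211 (0.67) with 5FdUR. ZNF708 and ZNF628 thus had a lower ratio and ZNF211 a higher ratio with either drug than in NT.

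Position along the chromosome was examined with clusters of members less than 500 kb apart. There were 19 such clusters, of which 8 held at least 5 measured members. The cluster from 19668796 to 24129968 on the short arm held 36 members, of which 15 were measured and 5 were among the 10 listed at 0. Of its 15 measured members 8 fell by limma (53.3%, against 6.17% of all genes), and the median ratios were -0.70 in RTX, -0.73 in 5FdUR and -0.45 in NT. These 8 were ZNF254, ZNF430, ZNF431, ZNF493, ZNF708, ZNF714, ZNF724 and ZNF91, of which ZNF714 was named after its values had been seen. Outside this cluster 9 of 120 fell (7.50%, against 6.17% of all genes and 4.39% of protein-coding genes), with medians of -0.35, -0.18 and -0.01. As the cluster was set apart for having the most members that fell, the share outside it had to be lower. This cluster also had the lowest coding GC of the 8, with a median of 37.6%. Its members shared a median of 6.56% of their 50-base stretches with other numbered ZNF genes on any chromosome. The part of these features in its low ratios was not tested. The highest mean ratio in it was that of ZNF101 (0.13), its first member.

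In the cluster from 43525497 to 44500524 on the long arm 3 of 17 measured members fell (17.6%), ZNF225, ZNF224 and ZNF226, and 1 rose (5.88%), ZNF428, with medians of -0.52 in RTX, -0.35 in 5FdUR and 0.04 in NT. ZNF224 and ZNF226 were named after their values had been seen. The cluster from 51571283 to 53580269 had 2 of 24 that fell (8.33%), ZNF83 and ZNF649, and medians of -0.40, -0.14 and -0.04. Its lowest mean ratio was in ZNF577 (-1.05, limma adjusted p = 0.0597) and its highest in ZNF468 (0.17, an entry of 2 merged genes). In the cluster nearest the end of the long arm, from 55476617 to 58475436, 4 of 31 fell (12.9%), ZNF460, ZNF552, ZNF264 and ZNF587, and 1 rose (3.23%), ZNF787, with medians of -0.14, -0.22 and 0.04. ZNF264 and ZNF587 were named after their values had been seen, and the ZNF587 entry merged 4 genes. ZNF837 had its highest mean ratio, 0.83, with an interval of 0.67 to 2.74 in NT and intervals that included 0 with the drugs.

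The other 4 clusters held none of the 19 members past the limma threshold. Their extremes were ZNF414 (0.37) and ZNF699 (-0.35) from 8509678 to 9793180, ZNF653 (0.14, an entry of 3 merged genes) and ZNF441 (-0.70) from 11483427 to 12633840, ZNF30 (0.02) and ZNF599 (-0.36) from 34677639 to 34964229, and ZNF565 (0.27) and ZNF383 (-0.57) from 36182276 to 37817300, each as the mean log2 ratio over the 3 treatments.

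**Figure D3:**
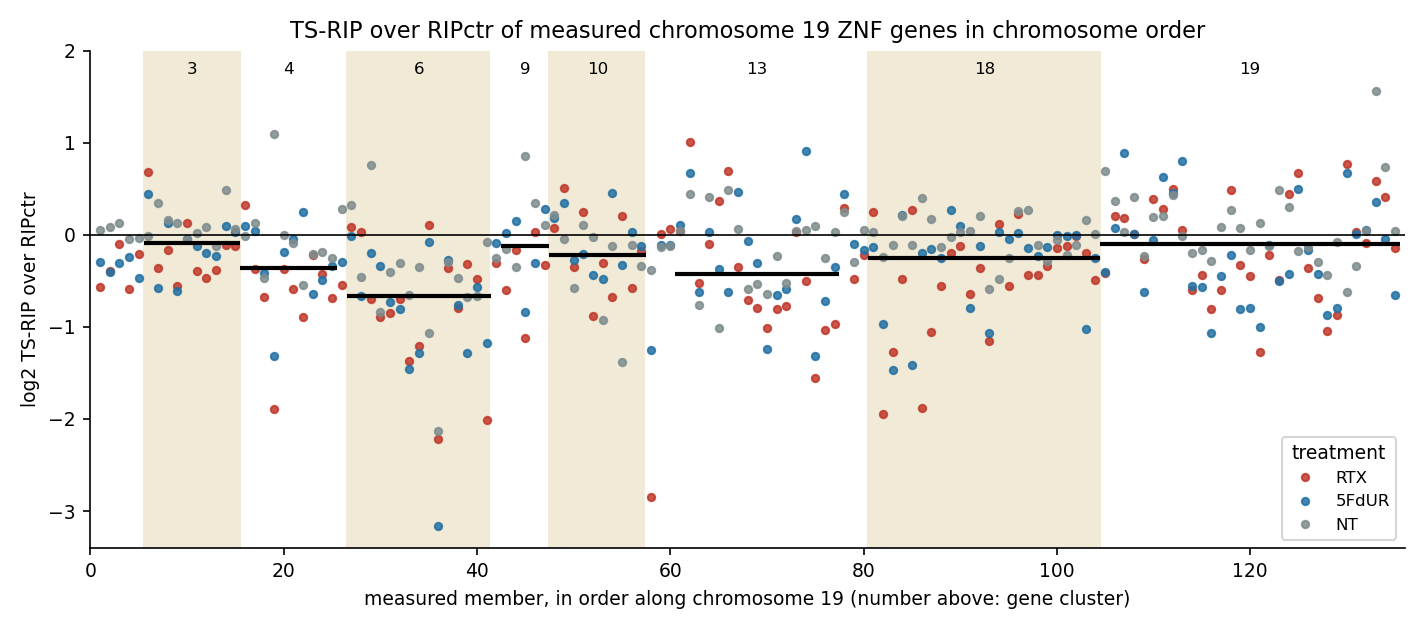
Log2 ratio of TS-RIP over RIPctr (y axis) of the 135 measured members in their order along chromosome 19 (x axis, rank), with RTX, 5FdUR and NT in separate colours and 1 point per member and treatment. Shading separates the 8 clusters with at least 5 measured members, numbered at the top, and black bars give the median of the mean ratios, which is lowest in cluster 6, the short-arm cluster with 8 members that fell.

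Ratios varied with sequence features that had no part in the choice of the members. In the third of the measured members with the fewest fingers (45 members with 1 to 10 fingers) medians were -0.14 in RTX, -0.05 in 5FdUR and 0.04 in NT. In the third with the most fingers (14 to 31) they were -0.52, -0.34 and -0.14. Spearman's rho between finger number and ratio was -0.35 in RTX, -0.34 in 5FdUR and -0.22 in NT over the 135 members. Ratios also varied with level. Medians were -0.50, -0.40 and -0.12 in the third with the lowest level and -0.14, -0.05 and 0.03 in the third with the highest. With the mean ratio, rho was 0.38 for the value per kb and -0.38 for finger number. The part of level in the differences by sequence feature was not tested. By the fixed KRAB pattern medians were -0.37, -0.27 and -0.11 with a match (78 members) and -0.30, -0.11 and -0.01 without (57). By the wider pattern they were -0.44, -0.27 and -0.10 with a match (108) and 0.07, 0.01 and 0.05 without (27), so the gap between the groups depended on the pattern.

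Coding GC, examined after the sequences had been seen, was above 60% in 18 measured members, of which 17 were among the 27 without a match to the wider pattern. The 57 without a match to the fixed pattern had a median coding GC of 44.4%. Both members that rose by limma were among these 18, which had medians of 0.19, 0.10 and 0.12 in RTX, 5FdUR and NT. All 17 that fell were among the 117 members at or below 60%, which had medians of -0.44, -0.27 and -0.11. The 10 members in that range without a match to the wider pattern had medians of -0.34, -0.29 and -0.04, near those of the 107 with one (-0.44, -0.27 and -0.11). Spearman's rho between coding GC and ratio was 0.38 in RTX, 0.31 in 5FdUR and 0.43 in NT. With the GC of the whole transcript and the mean ratio, rho was 0.53 over the members, 0.58 over 193 ZNF genes elsewhere and 0.31 over 12078 protein-coding genes, but 0.02 over 720 other protein-coding genes of chromosome 19. The points share libraries, depth and sequence ancestry, and these values are descriptions across genes.

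**Figure D4:**
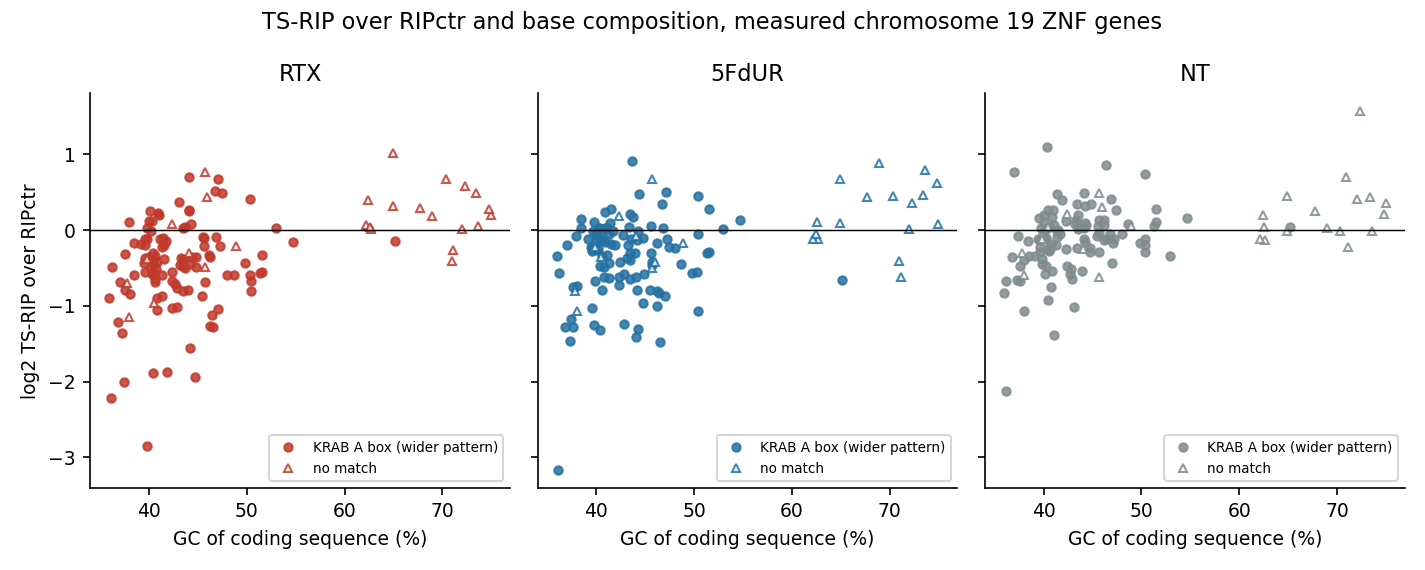
Log2 ratio of TS-RIP over RIPctr (y axis) against the GC content of the coding sequence in percent (x axis) for the 135 measured members in RTX, 5FdUR and NT, with filled circles for a KRAB A box by the wider pattern and open triangles for none. The group of 18 members above 60% GC, nearly all triangles, lies around or above 0, while most points below 0 lie between 36% and 50% GC.

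Changes with the drugs were read within each fraction. Neither fraction is the total RNA of the cells, so a change in RNA level and a change in retention cannot be told apart from these libraries alone. The study's RNA-seq of the same cell line and doses was not used here. It reported zinc finger domains as enriched among genes lowered by both drugs only in these cells. Most members were lower with either drug than in NT in both fractions. Each library pools many cells of 1 line, so a change in all cells and a change in some of them cannot be told apart. With RTX over NT, 104 of 130 members with a mean of the 4 libraries above 1000 were below 0 in both fractions (80.0%, against 41.2% of all genes) and 7 above (5.38%, against 39.8%). With 5FdUR over NT the counts were 93 of 131 (71.0%, against 41.2%) and 13 (9.92%, against 43.0%). Medians over the 135 measured members were -0.85 in TS-RIP and -0.53 in RIPctr for RTX over NT, and -0.70 and -0.46 for 5FdUR over NT. Over all genes these 4 medians lay between -0.02 and 0.03, and over ZNF genes outside chromosome 19 they were -0.70, -0.52, -0.73 and -0.54.

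A change of at least 2-fold in the same direction in both fractions was reached with RTX by 16 of 130 members downward (12.3%, against 3.61% of all genes) and by none upward (against 5.33%). With 5FdUR it was reached by 19 of 131 downward (14.5%, against 7.75%) and by 1 upward (0.763%, against 10.0%), ZNF383. Each comparison rests on 1 library per treatment and fraction and has no test. The 2 fractions came from the same lysate, so they are not independent samples.

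ZNF225, a KRAB gene of the 43525497 to 44500524 cluster, had the lowest mean change with either drug among the members 2-fold lower in both fractions. It had 3276 with RTX, 1794 with 5FdUR and 10115 in NT in TS-RIP, and 6720, 4361 and 15843 in RIPctr. The value with either drug was the lower one in each fraction, with log2 changes of -1.60 and -1.23 for RTX and -2.43 and -1.84 for 5FdUR in TS-RIP and RIPctr. ZNF507 (chromosome 19, 32345594 to 32387667), a gene with 9 fingers and no other member within 500 kb, had 31511, 31095 and 81262 in TS-RIP and 38827, 32977 and 96656 in RIPctr of RTX, 5FdUR and NT. Its changes were nearly equal in the fractions, -1.36 and -1.31 with RTX and -1.38 and -1.55 with 5FdUR. ZNF749 had changes of -1.49 and -1.21 with RTX and -1.71 and -1.08 with 5FdUR.

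With RTX the next lowest were ZNF836 (-1.56 in TS-RIP and -1.13 in RIPctr), ZNF136 (-1.55 and -1.19) and ZNF175 (-1.23 and -1.45). The ZNF836 entry merged 3 genes. With 5FdUR they were ZNF865 (-2.08 and -1.68), ZNF100 (-1.78 and -1.79) and ZNF607 (-1.45 and -1.59), whose entry also merged 3 genes. ZNF865, with 20 fingers and a coding GC of 72.0%, had 12657 with 5FdUR against 53892 in NT in TS-RIP, and 12537 against 40463 in RIPctr. ZNF383, the only member counted as higher, had 3688 with 5FdUR against 1275 in NT in TS-RIP and 5178 against 2508 in RIPctr, changes of 1.46 and 1.02. It had 15 fragments in NT TS-RIP, and the call was lost with 500 added to each value.

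**Figure D5:**
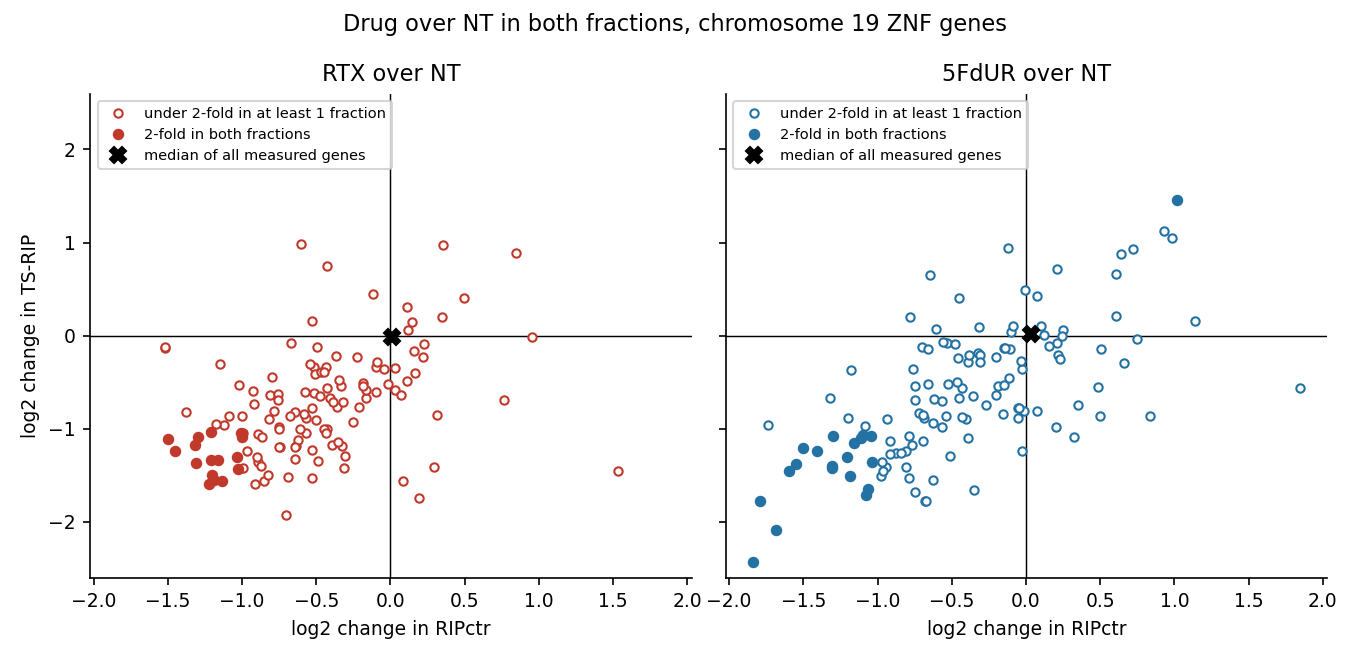
Log2 change in TS-RIP (y axis) against that in RIPctr (x axis) of members with a mean of the 4 libraries above 1000, for RTX over NT and 5FdUR over NT, with filled points for 2-fold changes in both fractions and a cross for the median of all measured genes. Of 130 members 104 lie below 0 on both axes with RTX and 93 of 131 with 5FdUR, while the cross lies near the origin.

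Between the drugs no member changed 2-fold in both fractions, against 0.352% of all genes downward and 1.04% upward. Medians for 5FdUR over RTX were 0.13 in TS-RIP and 0.13 in RIPctr, and 62 of 128 members were above 0 in both fractions (48.4%, against 37.9% of all genes) and 32 below (25%, against 37.0%). Among these 128, which had a mean of the 4 libraries above 1000, the largest mean changes were in ZNF613 (1.37 in TS-RIP and 0.67 in RIPctr), ZNF30 (0.74 and 1.08) and ZNF222 (1.19 and 0.55, an entry of 4 merged genes), the smallest in ZNF100 (-0.89 and -0.98), ZNF865 (-0.78 and -0.78) and ZNF700 (-0.46 and -1.0, an entry of 3 merged genes). ZNF100 had 4485 with 5FdUR against 8384 with RTX in TS-RIP, and 5451 against 10827 in RIPctr.

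Among the motifs searched, CCGGAAG was the one whose share in the promoters of the members stood furthest above that in promoters at large. RefSeq promoter sequences (GRCh38.p14, 250 bases before to 50 after the first listed start) were at hand for 186 members. CCGGAAG, the core that ETS-family factors recognise, was present on either strand in 84 of them (45.2%), against 10.7% of 27305 promoters, and 73 of its 95 matches began within 50 bases of the start. TATAAA was present in 1.61% (against 12%) and AAGATGG, the core that YY1 recognises, in 8.60% (against 6.06%), each searched on both strands. CCGGAAG ends with the letters that AAGATGG begins with, so that 1 stretch can hold both, and a match is not evidence of binding. The 100 bases before the start are shown for 3 genes of the short-arm cluster and for ZNF460, with the motif in capitals.
ZNF431 (chr19:21141940-21142039, plus strand): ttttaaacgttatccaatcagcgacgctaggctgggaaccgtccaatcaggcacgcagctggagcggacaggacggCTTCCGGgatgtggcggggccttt
ZNF91 (chr19:23395472-23395571, minus strand): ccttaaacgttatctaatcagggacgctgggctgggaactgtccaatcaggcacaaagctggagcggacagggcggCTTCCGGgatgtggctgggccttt
ZNF100 (chr19:21767580-21767679, minus strand): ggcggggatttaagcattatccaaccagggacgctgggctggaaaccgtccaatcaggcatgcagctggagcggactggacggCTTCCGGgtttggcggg
ZNF460 (chr19:57279882-57279981, plus strand): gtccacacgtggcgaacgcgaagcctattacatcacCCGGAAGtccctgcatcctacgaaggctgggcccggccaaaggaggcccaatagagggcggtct

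ZNF431 and ZNF91 had the same base at 90 of these 100 positions, and the motif lay on the opposite strand in all 3 genes of the short-arm cluster. Measured members with and without the motif had similar medians, and the difference was not tested. With RTX over NT medians in RIPctr were -0.53 in 51 members with CCGGAAG and -0.57 in 67 without, and in TS-RIP they were -0.89 and -0.86. With 5FdUR over NT they were -0.39 and -0.53 in RIPctr, and -0.75 and -0.83 in TS-RIP.

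Of the partners through which KRAB proteins act, 31 of a list of 33 were found by name and all were measured. By limma ATF7IP2, a SETDB1 partner, fell in TS-RIP (mean ratio -1.14, SE 0.26, adjusted p = 0.0158) and MTA1, a NuRD subunit, rose (0.45, SE 0.10, adjusted p = 0.0152), so 3.23% passed in each direction, against 6.17% of all genes downward and 2.33% upward. TRIM28, the corepressor that KRAB domains bind, had 641294, 399449 and 1001240 in TS-RIP of RTX, 5FdUR and NT, and 629572, 486212 and 1006330 in RIPctr. Its ratios stayed between -0.28 and 0.03, and it was lower with 5FdUR than in NT in both fractions, with log2 changes of -1.33 in TS-RIP and -1.05 in RIPctr. SETDB1 had 48935 with 5FdUR against 89848 in NT in TS-RIP, and 47422 against 97909 in RIPctr. By size, 2 partners were 2-fold lower in both fractions with 5FdUR over NT (6.45%, against 7.75% of all genes), TRIM28 and UHRF1, a reader of hemimethylated DNA (-2.11 in TS-RIP and -1.85 in RIPctr). With RTX over NT none was lower (against 3.61%) and 1 was higher (3.23%, against 5.33%), CBX3, which encodes a heterochromatin protein (1.45 and 1.17). UHRF1, 1 of 31, was also 2-fold lower with 5FdUR than with RTX (-1.49 and -1.10; 3.23%, against 0.352% of all genes).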

How the data were processed

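RNA of 6 TS-RIP and RIPctr libraries was compared. Per the labels and the study's methods, the authors trimmed reads (fastp), took out those matching rRNA (BWA), placed the rest on GRCh38 by strand (HISAT2) and counted fragments per GENCODE 34 gene with the Cufflinks tools, with geometric scaling and no length correction. Versions are not given in the sources used here. The deposited values, which the authors call FPKM, are signal in whole multiples of 1 step per library (100% of low values within 0.05 fragments), and were read as scaled fragment counts. Dividing by the step gave the fragments (7051104 to 11657293 per library). As only uniquely placed reads were kept, members with near-identical copies may be undercounted or mixed. Another 25 per-sample columns were not used.

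Members, lists and tests were chosen with earlier results of these data known. Ratios are log2(value + 100) in TS-RIP minus RIPctr, and changes are drug minus NT on the same scale, which understates changes of low genes. Over 3 treatments limma 3.58.1 (lmFit, eBayes with trend, a block for each treatment and 2 residual degrees of freedom) was run in R 4.3.3 on genes with a mean above 500. The p-values are two-sided, Benjamini-Hochberg adjusted over 13479 genes, and treatments take the place of replicates. On simulated data, 94% of changes of log2 1 but 48% of those of log2 0.5 were recovered among 13479 genes, with 9 false calls. The simulation had the same change in every pair and no differences between treatments. These rates therefore do not carry over to the real libraries, in which the pairs differed. Intervals are exact (Clopper-Pearson) at 95%, on fragments without the added 100, and cover counting error only. Coordinates, coding sequences and lengths of the MANE Select transcript come from GENCODE 44 on GRCh38, in which all 213 members were found. Fingers and KRAB boxes were counted on translations of these coding sequences, where RefSeq proteins had been planned.

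Named genes were the 12 lowest and up to 8 highest past the limma threshold, the 3 highest and 3 lowest ratios per treatment above a mean of 5000, up to 6 per direction for each drug comparison, the 5 highest levels per kb, the extremes of each cluster, the 3 largest ratio shifts per direction and drug, and ZNF460. Alternatives were other added values, filters and scaling, the 50% subsample made by the authors, pairs left out, limma without trend or block, edgeR 4.0.16 and DESeq2 1.42.0 on the recovered fragments, and entries of 1 gene only. The wider KRAB pattern and the medians under another scaling were added after the data were seen.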

Additional observations from a re-analysis of the deposited data

Results flagged for a closer look

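ZNF441, a KRAB gene with 14 fingers (chromosome 19, 11767000 to 11784078), differed in direction between treatments. It had 867, 1694 and 2550 in TS-RIP of RTX, 5FdUR and NT, against 3484, 4361 and 1140 in RIPctr. TS-RIP over RIPctr stood at -1.89 on the log2 scale with RTX [-3.27 to -0.88], at -1.31 with 5FdUR [-2.30 to -0.47] and at 1.10 in NT [0.09 to 2.36], so the counting intervals lay on opposite sides of 0. The difference was not tested, as each treatment had 1 pair of libraries, and NT RIPctr held 10 fragments of it. It was found by examining all members named by the rule, of which it was the only one with this pattern.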

How the results depend on the processing

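The median of the mean ratio over the members lay between -0.35 and -0.12 under all alternatives run. The count of 17 that fell and 2 that rose by limma became 5 and 1 with libraries scaled to the same total, 9 and 1 in the 50% subsample, 1 and 0 without trend in eBayes (unadjusted, 35 and 5), 0 and 0 with no replicate block (unadjusted, 9 and 0), and 4 and 2 in DESeq2. Leaving out 1 pair gave between 6 and 37 that fell and between 0 and 6 that rose. In edgeR 12 fell and 2 rose. For the counts under alternatives, here and below, the share of all genes under the same setting is not given. They thus show how the counts moved and not whether members differed from other genes. Under equal totals the median ratio over all genes was -0.12 in RTX, -0.10 in 5FdUR and 0.11 in NT, and that of the members -0.47, -0.31 and 0.042. The cause of these differences was not tested.

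By size within a treatment, 39 lower and 5 higher in RTX, 38 and 5 in 5FdUR, and 13 and 6 in NT became 75 and 13, 78 and 13, and 37 and 15 without a filter, and 15 and 1, 18 and 0, and 4 and 2 at 2-fold. At the same total there were 51 lower and 3 higher in RTX, 42 and 4 in 5FdUR, and 7 and 6 in NT. In the 50% subsample there were 49 lower and 10 higher in RTX, 34 and 9 in 5FdUR, and 17 and 9 in NT. With the exact binomial test added, 1 was higher in RTX, 22 lower in 5FdUR, and 8 lower and 3 higher in NT.

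Between treatments, RTX over NT gave 52 lower and 1 higher at 1.5-fold, 25 and 1 in RIPctr alone and 51 lower in TS-RIP alone, with 4 higher without a filter. For 5FdUR over NT there were 48 lower and 6 higher at 1.5-fold, 42 lower and 3 higher in TS-RIP alone and 3 higher in RIPctr alone, and 0, 3, 5 and 2 higher with 500 added, at the same total, without a filter and in the 50% subsample. At the same total 14 were lower for RTX over NT and 13 for 5FdUR over NT, beside 16 and 19 in the main setting. For 5FdUR over RTX there were 3 lower and 9 higher at 1.5-fold, 2 and 5 without a filter, 1 and 1 in RIPctr alone, 4 higher in TS-RIP alone and 1 higher in the 50% subsample.

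With a gap of 1000 kb there were 17 clusters, and the short-arm cluster kept its 8 of 15. Depth limits single members: at a value of 500 a library held under 6 fragments, and p-values over 3 treatments measure the spread between treatments.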
